A study of Homo sapiens with 6 samples.

Results

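Genes of late red cell maturation were followed in K562 cells with and without induced Flag-PCBP1: the globin chaperone gene AHSP, the enzyme genes CA1, CA2, BPGM, PKLR and SELENBP1, and the late erythroid marker genes HEMGN, TRIM58, ERMAP and TSPO2. They were chosen by name as enzymes and late markers of the erythroid lineage, and make up 10 of the 62252 genes to which the transcripts were summed. K562 is an erythroid leukemia cell line. A cassette flanked by lox sites was first placed at the AAVS1 locus of K562 cells, which were selected with blasticidin and grown from a single cell. The cassette was then exchanged for Flag-tagged PCBP1 under a tet-inducible promoter with puromycin resistance, and the selected line was polyclonal. Libraries of polyA RNA were made from these cells without doxycycline (−Dox, n = 3) and with it (+Dox, n = 3). Both groups carry the cassette, so an effect of Dox itself and an effect of Flag-PCBP1 cannot be told apart, and the dose and time of Dox for these libraries are not given in the sources used here. The labels do not say whether the 3 replicates of a group were separate cultures, so the p-values measure only the spread between these libraries.

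As a red cell precursor matures it fills with hemoglobin, loses most of its organelles and comes to depend on glycolysis for ATP. AHSP protein holds free alpha-globin until it pairs with beta-like globin. Carbonic anhydrases convert carbon dioxide and bicarbonate, BPGM makes the bisphosphoglycerate that lowers the oxygen affinity of hemoglobin, and PKLR encodes the pyruvate kinase of red cells and liver. HEMGN, TRIM58, ERMAP and TSPO2 are used as markers of the erythroid lineage, in which GATA1 and KLF1 activate many late genes through short DNA motifs.

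PKLR, HEMGN and ERMAP have more than 1 start site, and the windows around these starts are shown because the transcript values given further on split between them. The windows are RefSeq promoter sequences on GRCh38.p14, written 5′ to 3′ on the strand of the gene, with 250 bases before the start and 50 from the start on, so that base 251 is the first transcribed base. Capitals mark the letters searched on either strand. These were AGATAA and, as a second core known for GATA factors, TGATAA, with CCACCC for KLF factors and TATAAA for the TATA box, and no 2 of them overlapped within the windows. For PKLR the upstream start is that of the red cell (R) type and the downstream start that of the liver (L) type.
PKLR upstream, R type start, chr1:155301389-155301688, minus strand: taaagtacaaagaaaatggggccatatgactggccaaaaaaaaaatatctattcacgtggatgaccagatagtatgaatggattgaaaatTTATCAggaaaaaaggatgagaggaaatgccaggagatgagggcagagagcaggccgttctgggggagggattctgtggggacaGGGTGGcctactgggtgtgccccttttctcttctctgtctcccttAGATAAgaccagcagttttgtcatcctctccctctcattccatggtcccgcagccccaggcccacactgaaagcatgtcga
PKLR downstream, L type start, chr1:155300903-155301202, minus strand: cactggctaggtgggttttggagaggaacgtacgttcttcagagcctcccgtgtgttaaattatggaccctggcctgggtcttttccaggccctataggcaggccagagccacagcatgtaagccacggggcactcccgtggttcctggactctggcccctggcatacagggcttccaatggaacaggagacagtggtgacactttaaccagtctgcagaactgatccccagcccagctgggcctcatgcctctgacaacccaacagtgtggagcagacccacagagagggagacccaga
HEMGN upstream start, chr9:97944803-97945102, minus strand: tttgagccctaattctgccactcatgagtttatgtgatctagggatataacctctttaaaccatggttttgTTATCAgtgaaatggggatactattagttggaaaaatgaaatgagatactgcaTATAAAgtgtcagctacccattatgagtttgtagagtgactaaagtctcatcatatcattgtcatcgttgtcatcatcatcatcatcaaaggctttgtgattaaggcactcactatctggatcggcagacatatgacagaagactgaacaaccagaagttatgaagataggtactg
HEMGN downstream start, chr9:97938123-97938422, minus strand: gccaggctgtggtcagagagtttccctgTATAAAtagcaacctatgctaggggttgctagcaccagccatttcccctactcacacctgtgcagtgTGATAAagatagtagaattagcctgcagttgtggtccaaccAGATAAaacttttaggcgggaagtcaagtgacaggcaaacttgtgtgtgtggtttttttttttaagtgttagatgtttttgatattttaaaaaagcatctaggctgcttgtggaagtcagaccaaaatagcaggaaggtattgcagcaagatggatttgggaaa
ERMAP upstream start, chr1:42816872-42817171, plus strand: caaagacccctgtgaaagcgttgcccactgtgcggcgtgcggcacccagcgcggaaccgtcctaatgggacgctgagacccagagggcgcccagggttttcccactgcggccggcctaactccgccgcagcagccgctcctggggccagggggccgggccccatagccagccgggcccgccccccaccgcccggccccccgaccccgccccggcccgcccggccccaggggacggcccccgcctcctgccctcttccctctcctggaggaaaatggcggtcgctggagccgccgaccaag
ERMAP downstream start, chr1:42825311-42825610, plus strand: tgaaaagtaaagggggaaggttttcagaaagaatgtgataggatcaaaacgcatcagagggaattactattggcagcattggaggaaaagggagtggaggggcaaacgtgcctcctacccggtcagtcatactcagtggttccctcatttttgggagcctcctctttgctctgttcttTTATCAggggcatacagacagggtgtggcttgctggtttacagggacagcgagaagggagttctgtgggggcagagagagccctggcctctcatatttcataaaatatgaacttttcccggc

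Of the 10 genes, 6 had a window in the RefSeq table, with 10 windows in all, and those of BPGM, TRIM58 and TSPO2 are not printed. AHSP, SELENBP1, CA1 and CA2 had none. At least 1 of both GATA cores was found in 5 of the 10 windows, and in 16.3% of all 35116 windows of the table. These 5 windows belong to ERMAP, HEMGN, PKLR and TSPO2, and TSPO2 had too few counts to be tested for a change. The windows of BPGM and TRIM58, which both rose, held neither core. Taken alone, AGATAA was in 3 of the 10 windows (10.3% of all), TGATAA in 4 (7.53% of all), CCACCC in 3 (34.3% of all) and TATAAA in 2 (11.5% of all). The upstream PKLR window held AGATAA 31 bases, CCACCC 76 bases and TGATAA 160 bases before the start, and the downstream window held none of the letters. In ERMAP the downstream window held TGATAA 72 bases before the start and the upstream window held none. Both HEMGN windows held TGATAA as well as the letters TATAAA. These are matches of letters, 10 windows of 6 genes are few, and no binding was measured here.

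Of the 10 genes, 9 passed the filter of a mean estimated count above 10 and were tested, and 8 of these rose in +Dox: AHSP, CA1, BPGM, PKLR, SELENBP1, HEMGN, TRIM58 and ERMAP. Over all 21045 genes tested, 8.16% rose at the same limit, an adjusted p under 0.05 in edgeR's quasi-likelihood test with Benjamini-Hochberg adjustment. None of the 9 fell, against 7.68% of all genes, and none had a negative log2 fold change. The median log2 fold change (log2FC, +Dox over −Dox, given ± its standard error) was 0.71 over the 9 genes and 0.0061 over all genes tested. In 8 of the 10 genes the normalized count of every +Dox library was above that of every −Dox library, against 17.4% of all genes tested, and for each of these 8 an exact permutation test (two-sided, 3 against 3) gave p = 0.1, the smallest it can give. With the further limit of an absolute log2FC above 1, AHSP and CA1 were differentially expressed genes (DEGs), as were 0.737% of all genes in this direction. The 10 genes together summed to 130.1 ± 4.62 TPM in −Dox and 209.9 ± 8.71 TPM in +Dox (SD, n = 3), where TPM is an abundance per transcript length and library.

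**Figure D1:**
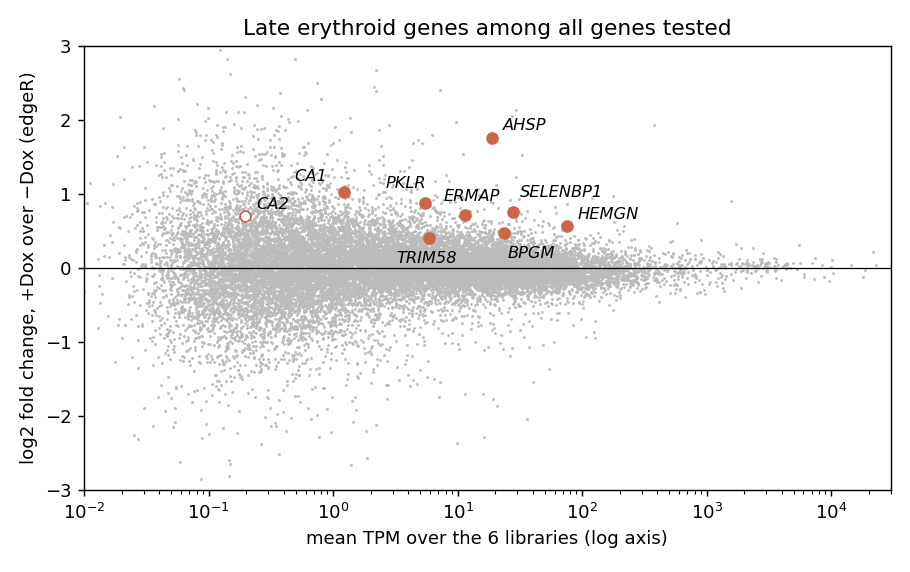
Each grey point is 1 of the genes tested, with its mean TPM over the 6 libraries on a log axis and its edgeR log2FC, +Dox over −Dox, between −3 and 3. Orange points are the 9 late erythroid genes tested, filled where the adjusted p was under 0.05; all 9 lie above 0, from 0.41 for TRIM58 to 1.76 for AHSP, and CA2 is the open point. Beyond the axes lie 57 genes by log2FC and 5 by TPM.

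Libraries held between 70905656 and 84177316 estimated counts, given for each library with the processing. The induced gene was checked first. PCBP1 was at 156.0, 157.6 and 162.7 TPM in −Dox replicates 1, 2 and 3 and at 596.4, 582.2 and 600.4 TPM in +Dox replicates 1, 2 and 3, so the labels and the induction go together in every library. K562 cells also expressed their erythroid markers in every library, among them GATA1 (124.1 ± 3.20 TPM) and NFE2 (120.6 ± 4.32 TPM; SD, n = 3) in −Dox. Of the embryonic and fetal globins HBE1, HBG1 and HBG2, the least abundant, HBE1, was at 3799 ± 161.4 TPM in −Dox and 3457 ± 126.6 TPM in +Dox. The adult beta-globin HBB stayed at 0.0202 ± 0.0349 TPM in −Dox and 0.173 ± 0.216 TPM in +Dox.

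AHSP (ENSG00000169877.10; chr16:31527900-31528803, plus strand) changed the most. Its level was 9.14, 8.39 and 7.10 TPM in −Dox and 34.1, 28.7 and 25.8 TPM in +Dox, from 133 to 181 estimated counts per −Dox library and 524 to 584 per +Dox library. The lowest +Dox library stood far above the highest −Dox library. The mean rose 3.60-fold, from 8.21 ± 1.03 to 29.6 ± 4.23 TPM (SD, n = 3), with a log2FC of 1.76 ± 0.146 (edgeR adjusted p = 6.86e-06), and 92 of the genes tested had a larger log2 increase. The alpha-globin genes, which encode its partner, did not pass the test with all libraries. HBA1 had a log2FC of 0.0013 (edgeR adjusted p = 0.994) and HBA2 one of −0.22 (adjusted p = 0.107), with the caution that their near-identical copies can share reads and that the sign of HBA1 changes with the scaling. HBA2 was called lower in 3 of 14 other settings, namely without −Dox replicate 1 (log2FC −0.28), without +Dox replicate 1 (−0.32) and with no filter on low counts. Its log2FC was −0.13 without −Dox replicate 2. The ratio of AHSP to summed HBA1 and HBA2 in TPM, written as a percent, was 0.457%, 0.398% and 0.370% in −Dox and 1.68%, 1.47% and 1.41% in +Dox. The groups did not overlap in this ratio (exact permutation test, two-sided, p = 0.1).

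**Figure D2:**
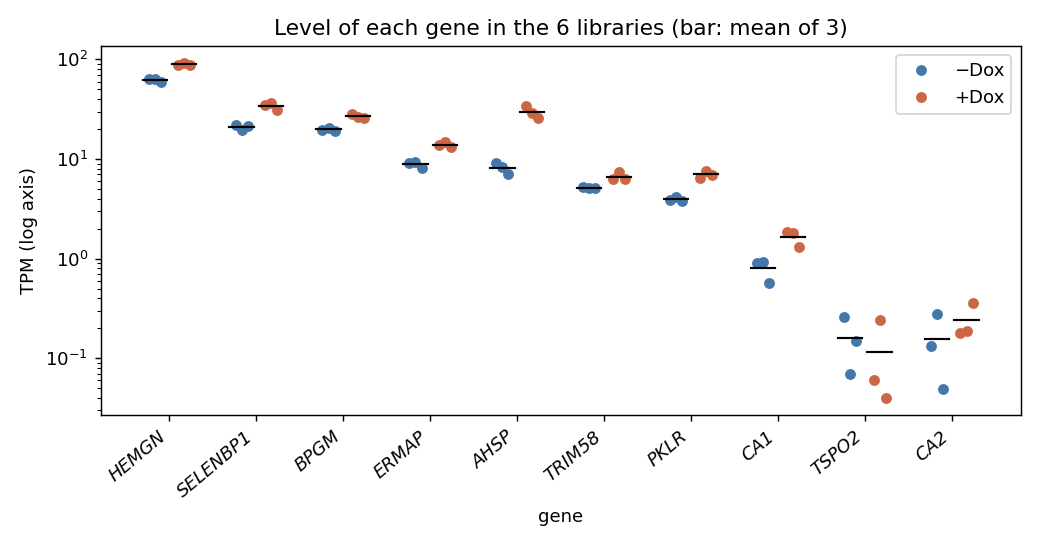
TPM of each late erythroid gene (log axis) in the 3 −Dox (blue) and 3 +Dox (orange) libraries, in replicate order from left to right, with the mean as a bar. The groups are apart for 8 genes and overlap for TSPO2 and CA2, both under 0.4 TPM in every library.

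Among the enzymes, both red cell carbonic anhydrases were scarce. CA1 (ENSG00000133742.14; chromosome 8 of GRCh38, 85327608 to 85379014, minus strand), a major protein of mature red cells, was at 0.900, 0.934 and 0.567 TPM in −Dox and 1.87, 1.81 and 1.31 TPM in +Dox. The groups did not overlap, although each library held only 53 to 145 estimated counts. The log2FC of CA1 was 1.02 ± 0.227 (edgeR adjusted p = 0.00832), and 2.08-fold in mean TPM. CA1 was not called by limma on log2(TPM + 0.1) or log2(TPM + 1), with adjusted p of 0.0740 and 0.0738, and its log2FC was under the DEG limit, at 0.99, 0.90 and 0.93, without −Dox replicate 1, −Dox replicate 3 and +Dox replicate 1. CA2 (ENSG00000104267.10; 85463968 to 85481493 on the same chromosome, plus strand), the most active of the soluble carbonic anhydrases, was at 0.134, 0.281 and 0.0497 TPM in −Dox and 0.179, 0.187 and 0.355 TPM in +Dox. These groups overlap, and with 5 to 41 estimated counts in a library the value of CA2 is imprecise. Its log2FC was 0.70 ± 0.595 (edgeR adjusted p = 0.490) and ranged from 0.28 to 1.43 when single libraries were left out, so a change of CA2 was not detectable at this depth.

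Of the 13 other carbonic anhydrases listed, 6 were tested, 1 rose and none fell, with a median log2FC of 0.09. The shares over all genes tested were 8.16% rising and 7.68% falling. CA8, a relative without the catalytic activity, was the gene that rose, from 19.2 ± 0.226 to 21.7 ± 0.530 TPM (SD, n = 3; log2FC 0.20, edgeR adjusted p = 0.0138), and it was called in 9 of 14 other settings but not without +Dox replicate 3 (adjusted p = 0.0590). CA11, the most abundant in TPM, had a log2FC of 0.15 (edgeR adjusted p = 0.327), which ranged from 0.087 to 0.21 when single libraries were left out. CA13, whose gene lies 43535 bases from CA1, had one of −0.08 (edgeR adjusted p = 0.551), with a range of −0.13 to −0.026 in the same fits.

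BPGM (ENSG00000172331.12; chr7:134646811-134679816, plus strand) was at 19.7, 20.7 and 19.2 TPM in −Dox and 28.6, 26.1 and 26.0 TPM in +Dox. The libraries of each group lay close together and the groups were apart. The increase was 1.35-fold in mean TPM, with a log2FC of 0.48 ± 0.0672 (edgeR adjusted p = 4.47e-04). PGAM1, the related phosphoglycerate mutase of glycolysis, had a log2FC of −0.13 (edgeR adjusted p = 0.117). The ratio of BPGM to PGAM1 in TPM, as a percent, was 10.2 ± 0.547% in −Dox and 15.4 ± 1.58% in +Dox (SD, n = 3; exact permutation test, two-sided, p = 0.1), without overlap. In TPM, BPGM was higher and PGAM1 lower in every +Dox library, so the ratio had to separate the groups and is no further test.

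PKLR (ENSG00000143627.19; chr1:155289293-155301438, minus strand), which catalyses the last step of glycolysis in red cells, was at 3.86, 4.16 and 3.81 TPM in −Dox and 6.51, 7.58 and 6.99 TPM in +Dox. Every +Dox library was well above the −Dox range. Its log2FC was 0.88 ± 0.0723 (edgeR adjusted p = 6.48e-06), 1.78-fold in mean TPM. PKM, the pyruvate kinase gene of most other cells, went the other way, from 124.9 ± 11.5 to 98.2 ± 7.48 TPM (SD, n = 3; log2FC −0.28 ± 0.0744, edgeR adjusted p = 0.0210). PKM was called in 9 of 14 other settings. The ratio of PKLR to PKM in TPM, as a percent, was 3.25%, 3.54% and 2.76% in −Dox and 7.25%, 7.56% and 6.69% in +Dox. The groups did not overlap (exact permutation test, two-sided, p = 0.1). This had to be so, since PKLR was higher and PKM lower in every +Dox library, so the ratio is no further test. PKM remained the more abundant of the pair in every library. Exons of HCN3 on the opposite strand cover 17.6% of the exon bases of PKLR, and HCN3 had a log2FC of 0.03 (edgeR adjusted p = 0.833).

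SELENBP1 (ENSG00000143416.21; chr1:151364304-151372707, minus strand), a methanethiol oxidase abundant in red cells, was at 22.0, 19.5 and 21.4 TPM in −Dox and 34.8, 36.6 and 31.4 TPM in +Dox. The ranges are separated by more than the width of either. The log2FC was 0.76 ± 0.0560 (edgeR adjusted p = 2.71e-06), number 48 of the 21045 genes by p and the smallest adjusted p of the 9 genes tested.

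**Figure D3:**
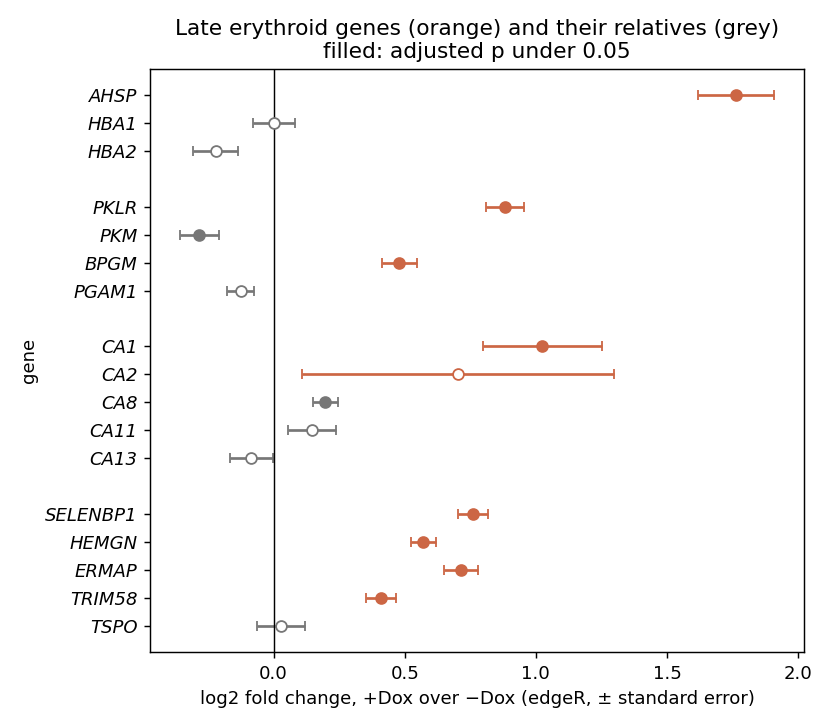
The edgeR log2FC (+Dox over −Dox) with its standard error for the late erythroid genes tested (orange) and, beside each, genes of the same family or pathway (grey). Filled points had an adjusted p under 0.05; PKLR stands at 0.88 and PKM at −0.28, and AHSP at 1.76 with HBA1 near 0, the sign of which changes with the scaling.

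HEMGN (ENSG00000136929.13; chr9:97926791-97944856, minus strand), a nuclear protein of hematopoietic cells, was the most abundant of the 10 genes. It was at 63.7, 62.9 and 59.3 TPM in −Dox and 87.4, 92.7 and 88.6 TPM in +Dox. No +Dox library came near the −Dox range, and the increase was 1.44-fold in mean TPM (log2FC 0.57 ± 0.0472, edgeR adjusted p = 6.86e-06). TRIM58 (ENSG00000162722.9; chr1:247857187-247880138, plus strand), a ubiquitin ligase of late erythroblasts that is linked to the loss of the nucleus, was at 5.23, 5.07 and 5.07 TPM in −Dox and 6.28, 7.34 and 6.25 TPM in +Dox. These groups do not overlap, but the change was the smallest of the 8 that rose, with a log2FC of 0.41 ± 0.0572 (edgeR adjusted p = 4.42e-04). TRIM58 was not called by limma on log2(TPM + 0.1) or log2(TPM + 1), with adjusted p of 0.0803 and 0.0930.

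At the cell membrane, ERMAP (ENSG00000164010.15; chr1:42817122-42844991, plus strand), which carries the Scianna blood group, was at 9.03, 9.28 and 8.18 TPM in −Dox and 13.7, 15.0 and 13.2 TPM in +Dox. The 2 ranges lie far apart compared with their widths. Its log2FC was 0.71 ± 0.0648 (edgeR adjusted p = 1.55e-05), 1.58-fold in mean TPM. ERMAP shares 8.36% of its exon bases with ZNF691-DT and 1.12% with SVBP, both on the opposite strand. ZNF691-DT had a log2FC of 0.21 (edgeR adjusted p = 0.310). SVBP rose (0.29, edgeR adjusted p = 0.0228) and was called in 8 of 14 other settings, and reads of the shared bases cannot be told apart from those of ERMAP. TSPO2 (ENSG00000112212.12; chr6:41042467-41044337, plus strand), the erythroid relative of the mitochondrial protein TSPO, was at 0.261, 0.0698 and 0.150 TPM in −Dox and 0.0600, 0.245 and 0.0398 TPM in +Dox. These groups overlap (exact permutation test, two-sided, p = 0.4), with 3 to 18 estimated counts per library, too few to be tested across genes. TSPO itself was near 77 TPM in +Dox, with a log2FC of 0.03 (edgeR adjusted p = 0.890), a sign that turned in some other settings.

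The order of levels in TPM was much the same in both groups. In −Dox it ran HEMGN, SELENBP1, BPGM, ERMAP, AHSP, TRIM58, PKLR, CA1, TSPO2 and CA2, and the neighbours SELENBP1 and BPGM, ERMAP and AHSP, and TSPO2 and CA2 overlapped in their ranges. In +Dox AHSP moved from place 5 to place 3, where its range overlapped those of SELENBP1 and BPGM, and PKLR and TRIM58 came to overlap. Within each group, replicate 3 had the lowest TPM for 7 of the 10 genes, in −Dox and in +Dox alike. The same was not counted over all genes, so it cannot be called particular to these 10.

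Transcripts were then grouped by start site, joining those of a gene that begin within 100 bases of each other, a grouping added after the values were seen. Of 16 start sites of the 10 genes tested at this level, 6 rose (edgeR adjusted p under 0.05), against 0.796% of the 49364 start sites tested. They were 1 each of AHSP, BPGM, PKLR, SELENBP1, HEMGN and TRIM58. Each held at least 88% of its gene's TPM in the −Dox mean, so these calls largely repeat the result for the whole gene. When single libraries were left out, the start sites of PKLR and SELENBP1 were called in each of the 6 fits and the other 4 in none. With the replicate number as a block, no start site of the 10 genes was called, and 2 of all start sites were. At the level of single transcripts, 3 rose, AHSP-201, PKLR-201 and SELENBP1-201, of 31 tested for these genes and against 0.129% of all 86178 transcripts tested. None of the 3 was called when any 1 library was left out, and those fits called 2 to 4 of all transcripts. Reads are shared between similar transcripts and the files hold no measure of that uncertainty, so these p-values are less certain than those of whole genes.

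The R-type start of PKLR, whose window is printed above, held nearly all of the transcript. It was at 3.76, 3.73 and 3.77 TPM in −Dox and 6.51, 7.58 and 6.99 TPM in +Dox (log2FC 0.95 ± 0.0652, edgeR adjusted p = 0.00573). The downstream L-type start was at 0.104, 0.429 and 0.0399 TPM in −Dox and is listed at 0 in each +Dox library. So the increase of PKLR lay at the R-type start, which carried 95.3 ± 4.94% of the gene's TPM in −Dox (SD, n = 3) and 100% in +Dox.

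HEMGN also used one of its starts for most of its transcript. The downstream start was at 56.0, 59.6 and 52.0 TPM in −Dox and 78.7, 79.0 and 80.0 TPM in +Dox (log2FC 0.56 ± 0.0676, edgeR adjusted p = 0.0247). The upstream start was at 7.74, 3.32 and 7.39 TPM in −Dox and 8.67, 13.6 and 8.61 TPM in +Dox, and was not called (log2FC 0.79, edgeR adjusted p = 0.354, and 0.51 to 0.99 when single libraries were left out). The downstream start held 90.0 ± 4.06% of the gene's TPM in −Dox and 88.6 ± 2.82% in +Dox (SD, n = 3), with overlapping groups.

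In ERMAP the 2 main starts were of similar level. The downstream start, the one with TGATAA in its window, was at 3.62, 2.90 and 3.05 TPM in −Dox and 8.42, 6.45 and 4.72 TPM in +Dox, without overlap, but the spread within +Dox was wide and it was not called (log2FC 1.09 ± 0.207, edgeR adjusted p = 0.0731). The upstream start was at 3.94, 5.49 and 4.29 TPM in −Dox and 4.34, 6.51 and 6.92 TPM in +Dox, with overlapping groups (log2FC 0.37, edgeR adjusted p = 0.540, and 0.22 to 0.58 when single libraries were left out). The share of the downstream start in ERMAP was 36.2 ± 4.50% in −Dox and 46.7 ± 13.1% in +Dox (SD, n = 3), and the groups overlap (exact permutation test, two-sided, p = 0.3). The start of CA1 could not be resolved, since its reads were assigned to different transcripts in different libraries.

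**Figure D4:**
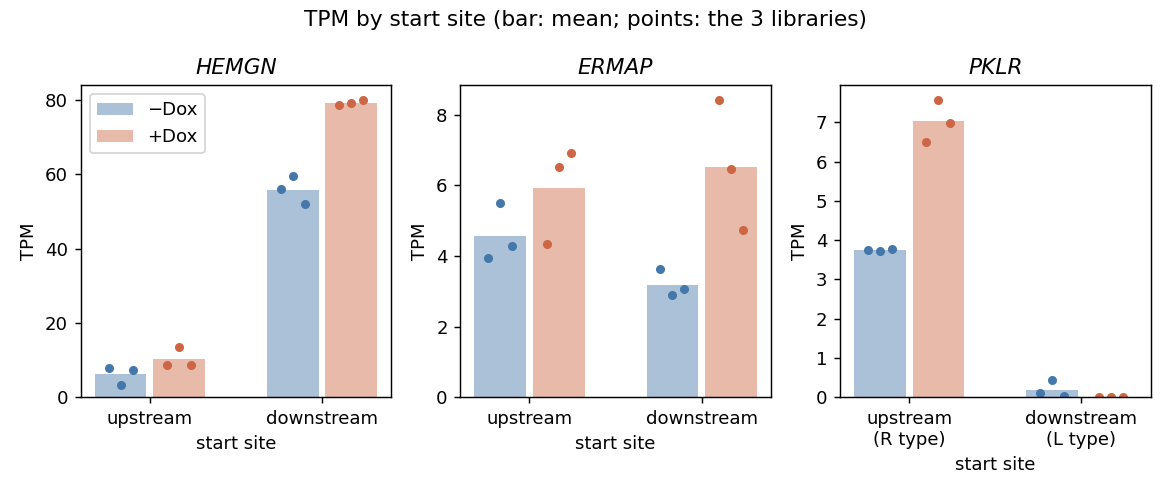
TPM of the upstream and the downstream start site of HEMGN, ERMAP (its 2 main starts) and PKLR, with 1 point per library and bars for the mean of 3 (−Dox blue, +Dox orange). The R-type start of PKLR rose from 3.75 to 7.03 TPM in the mean while its L-type start is listed at 0 in +Dox; the points of the downstream ERMAP start spread from 4.72 to 8.42 TPM in +Dox.

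SELENBP1 has 19 annotated transcripts, 6 of them protein-coding and 6 with a retained intron. The protein-coding transcripts were at 11.6, 9.66 and 11.2 TPM in −Dox and 20.5, 21.2 and 20.1 TPM in +Dox, a 1.91-fold increase of the mean. Those with a retained intron were at 9.80, 8.83 and 9.51 TPM in −Dox and 11.4, 13.7 and 10.7 TPM in +Dox, a 1.27-fold increase. Both classes were higher in every +Dox library, and the protein-coding class by more. The share of the gene's TPM on transcripts that are not protein-coding was 47.3%, 50.5% and 47.9% in −Dox and 41.0%, 42.0% and 36.1% in +Dox. This share did not overlap between the groups (exact permutation test, two-sided, p = 0.1), and the comparison was made after the values were seen. In ERMAP the same share was 36.5 ± 5.57% in −Dox and 28.6 ± 5.81% in +Dox (SD, n = 3), with overlapping groups (exact permutation test, two-sided, p = 0.2).

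**Figure D5:**
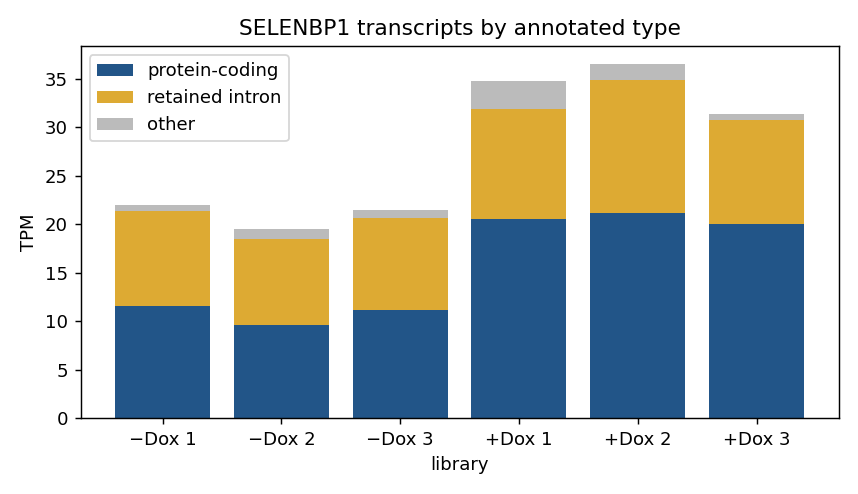
TPM of SELENBP1 in each library, stacked by the annotated type of transcript (protein-coding, retained intron, other). The protein-coding part is 9.66 to 11.6 TPM in the −Dox libraries and 20.1 to 21.2 TPM in the +Dox libraries.

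Genes of the same pathways moved in both directions, where 8.16% of all genes tested rose and 7.68% fell. Of 13 genes of common glycolysis, all tested, 5 fell and none rose, with a median log2FC of −0.13. The number that fell was 3 without −Dox replicate 3, +Dox replicate 1 or +Dox replicate 2, and up to 7 without another library. Those that fell were PKM and the genes of phosphofructokinase in muscle (PFKM, −0.33, edgeR adjusted p = 0.00143), enolase (ENO1, −0.30, adjusted p = 0.00249), lactate dehydrogenase A (LDHA, −0.33, adjusted p = 0.00301) and phosphoglycerate kinase (PGK1, −0.22, adjusted p = 0.0198). ENO1 and LDHA were called in all 14 other settings, PFKM in 11 and PGK1 in 10. Of 15 red cell enzymes and redox proteins, most of them of redox balance and nucleotide metabolism and all tested, 5 rose and 2 fell, with a median of 0.12. No fit that left out a library called all 5, and the number that rose was 3 without −Dox replicate 1, −Dox replicate 3 or +Dox replicate 1 and 4 otherwise. The number that fell was 1 in these fits, except 2 without +Dox replicate 3. The biliverdin reductase gene BLVRB rose from 458.1 ± 20.6 to 692.6 ± 27.3 TPM (SD, n = 3; log2FC 0.61, edgeR adjusted p = 1.77e-04), and catalase (CAT, 0.38), peroxiredoxin 2 (PRDX2, 0.28) and adenylate kinase 1 (AK1, 0.25) rose too, AK1 in 9 of 14 other settings and the other two in all 14. The fifth that rose, acetylcholinesterase (ACHE, 0.35), an enzyme of the red cell surface that acts in neither process, falls outside the rule for naming and was added after its value was seen, and it was called in 6 of 14 other settings. Glutathione reductase (GSR, −0.21, edgeR adjusted p = 0.00495) and the pyrimidine nucleotidase NT5C3A (−0.18, adjusted p = 0.0403) fell, NT5C3A in 8 of 14 other settings.

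Of 18 other genes of terminal maturation, all tested, 9 rose and 1 fell, with a median log2FC of 0.26. Over all genes tested, 8.16% rose and 7.68% fell, with a median of 0.0061. TENT5C, a poly(A) polymerase, rose from 4.69 ± 0.177 to 8.88 ± 0.606 TPM (SD, n = 3; log2FC 0.96, edgeR adjusted p = 6.09e-07). The oxysterol-binding protein gene OSBP2 (0.54), the pseudokinase gene STRADB (0.42) and FAM210B (0.32), which acts in mitochondria of erythroblasts, rose in all 14 other settings as well. XPO7, a nuclear transport receptor, fell (−0.16, edgeR adjusted p = 0.0274) and was called in 6 of 14 other settings. No gene of these 18 fell when a library other than −Dox replicate 3 was left out. Of the 13 close relatives of the 10 genes, 11 were tested, none rose and only PKM fell, with a median of −0.09. None of the relatives fell without −Dox replicate 3, +Dox replicate 1 or +Dox replicate 2, and 2 fell without −Dox replicate 1 or +Dox replicate 3. Those relatives include the tripartite motif genes near TRIM58 in sequence and the butyrophilin genes near ERMAP. Where no gene of a list rose or none fell by edgeR, the count in that direction was also 0 at an unadjusted p under 0.05 and by DESeq2, in each of the lists used here. DESeq2 called 7 glycolysis genes and 3 relatives lower, and otherwise the same number of each list as edgeR.

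Of 8 globin genes 7 were tested, none rose and 2 fell, the embryonic HBZ (log2FC −0.40, edgeR adjusted p = 0.00213) and the minor adult HBD (−0.51, adjusted p = 0.0103, called in 11 of 14 other settings). Among all genes tested, 8.16% rose and 7.68% fell. HBE1 (−0.13, and −0.18 to −0.057 when single libraries were left out), HBG1 (−0.12, and −0.16 to −0.058) and HBG2 (0.02, a sign that turned in these fits) did not pass the test. Of 6 erythroid regulators and receptors, 3 rose and 1 fell. The erythropoietin receptor gene EPOR (0.97, edgeR adjusted p = 6.52e-07) rose the most of the 6, and the transcription factor genes KLF1 (0.46) and TAL1 (0.44, called in 12 of 14 other settings) also rose. The transferrin receptor gene TFRC fell (−0.34, edgeR adjusted p = 8.56e-04), and GATA1 (0.12, adjusted p = 0.113) and NFE2 (−0.10, adjusted p = 0.171) did not pass the test.

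Markers of other blood cells were examined beside these counts, because in bulk RNA fewer cells of a type and less RNA per cell cannot be told apart. Their counts stand against 8.16% of all genes tested that rose and 7.68% that fell. Of 10 megakaryocyte markers 6 were tested, the tubulin gene TUBB1 rose (log2FC 0.95, edgeR adjusted p = 4.81e-05) and the collagen receptor gene GP6 fell (−0.75, adjusted p = 1.86e-04). They summed to 57.0, 63.6 and 74.3 TPM in −Dox and 66.6, 66.6 and 70.5 TPM in +Dox, with 77.5% in GP1BB, and the defining marker PF4 was listed at 0 in every library. Of 12 myeloid markers 6 were tested and the lysozyme gene LYZ fell (−0.47, edgeR adjusted p = 0.00837) and was called in 12 of 14 other settings. Their sum was 116.0, 129.5 and 152.1 TPM in −Dox and 90.3, 94.8 and 105.9 TPM in +Dox, with 82.8% in LYZ, and MPO and ELANE were at most 0.0107 TPM in the mean of either group. Of 6 lymphoid markers 2 were tested and neither passed. These 6 summed to 53.1, 54.7 and 48.8 TPM in −Dox and 43.5, 35.8 and 59.8 TPM in +Dox. Of this sum 95.5% was in CD3D, and MS4A1 was listed at 0. The part of these markers in the increase of the 10 genes was not tested.

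Among the nearest tested protein-coding genes on either side of the 10 genes, 19 in all without the 10 themselves, 2 rose and none fell. Over all genes tested, 8.16% rose and 7.68% fell, so these counts set the neighbours apart in neither direction. RUSF1, 18591 bases from AHSP on the opposite strand, rose from 13.6 to 19.8 TPM in the mean (log2FC 0.59 ± 0.0581, edgeR adjusted p = 3.11e-05). ZNF691, 1582 bases beyond ERMAP, rose less (0.24, edgeR adjusted p = 0.0401) and was called in 3 of 14 other settings, none of which left out a library. At the other loci the nearest genes did not pass the test, among them FDPS (0.03) beside PKLR, PSMB4 (−0.04) beside SELENBP1, ANP32B (−0.05) beside HEMGN and OR2W3 (−0.02) beside TRIM58. Larger values with wide standard errors also did not pass. These were AGBL3 (0.59 ± 0.266) beside BPGM, OR9H1P (0.48 ± 0.315) beside TRIM58 and UNC5CL (−0.40 ± 0.278) beside TSPO2.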

How the data were processed

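PolyA RNA of K562 cells was sequenced in 6 libraries (paired ends of 150 cycles), 3 −Dox and 3 +Dox. The authors ran Salmon 1.10.2 on each library separately. The deposited values are, per transcript, the estimated count (not scaled) and the TPM (scaled for effective length and library). The submitters' processing notes also name DESeq2 and STAR, and the genome build hg38. The index and strand setting of Salmon are not given in the sources used here, so reads of overlapping genes on opposite strands cannot be told apart.

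Of 252045 transcripts, 251142 matched GENCODE 44 on GRCh38 with their version, 470 only without it and 433 not at all (0.125% to 0.138% of counts). Estimated counts were summed over the transcripts of 62252 genes and rounded. Totals were 84177316, 80104627 and 74766040 in −Dox and 70905656, 82263502 and 82449808 in +Dox (replicates 1, 2 and 3). Deposited TPM values were summed per gene for levels. Genes with a mean count above 10 were compared with edgeR 4.0.16 (quasi-likelihood, TMM, two-sided, Benjamini-Hochberg over all genes) in R 4.3.3, and transcripts and start sites in the same way. A gene that "rose" or "fell" had an adjusted p under 0.05, and a DEG also an absolute log2 fold change above 1.

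Alternatives were DESeq2 1.42.0, RLE size factors, no filter, at least 10 counts in every library, a transcript length offset, limma 3.58.1 on log2(TPM + 0.1) and log2(TPM + 1) for genes with a mean of at least 0.1 TPM, each library left out, and the replicate number as a block. Steps were tested on simulated data. The edgeR test of transcript usage called unchanged transcripts there and was not used. Named are the 10 genes, PCBP1, genes of the lists of relatives, carbonic anhydrases, globins and erythroid regulators, up to 4 called genes per direction of each further list by p, and neighbouring or overlapping genes. A gene of the list of erythroid regulators and receptors is not reported here. It was left out of the counts of that list after the values were seen, for a reason unrelated to them, and it was in no other list. The genes and lists were chosen with earlier results of these data known. Ratios between genes, start-site groups and transcript types were compared after the values were seen. Tables and figures were made with Python 3.11.15, pandas 2.3.3, scipy 1.17.1 and matplotlib 3.10.9.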

Additional observations from a re-analysis of the deposited data

How the results depend on the processing

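The 9 genes tested and PCBP1 kept their direction in every alternative that gave a value, and 135 of these 139 alternatives also left the side of the threshold unchanged. The other 4 were the fits of limma on log2(TPM + 0.1) and log2(TPM + 1), in which CA1 (log2 fold change 0.98 and 0.56) and TRIM58 (0.36 and 0.31) were not called, for a cause that was not tested. Those fits called 1267 and 1218 genes (506 and 482 higher, 761 and 736 lower) with 174 and 63 DEGs, 1 DEG among the 10 genes, and 12 of the other listed genes higher, against 3333, 308, 2 and 19 in the main comparison. The length offset called 1882 genes, 913 higher and 969 lower, and without a filter there were 515 DEGs. TSPO2 had no main value, CA2 none with at least 10 counts in every library, and DESeq2 gave CA2 no adjusted p.

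When single libraries were left out, the DEGs among the 10 genes numbered 1 to 2 (CA1 was under the limit without −Dox replicate 1 or 3 or +Dox replicate 1), and genes called lower 1067 to 1697. Transcripts called fell from 176 to between 2 and 4, with 0 of the 10 genes in each fit, and start sites from 707 to between 77 and 154, with 2 of the 10 genes in each fit. With a mean count above 50, 429 transcripts were called, 5 of them of the 10 genes. Signs turned for TSPO (−0.018 in both limma fits, −0.094 to 0.11 without single libraries), HBA1 (−0.0067 with RLE and with DESeq2, −0.0022 without a filter, −0.0047 with at least 10 counts in every library, −0.066 to 0.10 without single libraries) and HBG2 (−0.023 to 0.068 without single libraries), none of which was called.

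The ratios of PKLR to PKM, BPGM to PGAM1 and AHSP to alpha-globin, and the SELENBP1 share, kept their direction without any 1 library and with estimated counts in place of TPM. Replicate numbers did not pair the libraries, with correlations of 0.0075, −0.0605 and −0.0029 between same-numbered libraries over 21045 genes. With the replicate number as a block, 8 of the 10 genes were still called higher. That fit called 2490 of all genes, 1329 higher and 1161 lower. At the finer levels 0 transcripts and 2 start sites were called by edgeR with this block, 0 of them of the 10 genes.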
